A study of Mus musculus with 2 samples.

Results

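The 40 genes described here belong to the unfolded protein response and the integrated stress response, and they were picked out on the array by gene symbol. The list itself was drawn up with earlier results of these data known. Each of the 40 was named by at least 1 probe set, out of 18193 genes named on the array. They were read in crypts isolated from the small intestine of knockout mice (Lpcat3 F/F, Villin-CreERT2) and of control mice (Lpcat3 F/F). Mice of both groups carried floxed alleles of Lpcat3, which encodes an acyltransferase that puts polyunsaturated fatty acids into membrane phospholipids. Both groups were 8 to 10 weeks old, received tamoxifen by intraperitoneal injection at 1 mg per mouse per day for 5 days, and gave crypts 2 weeks later. The knockout mice alone carried Villin-CreERT2, in which the Villin promoter drives, in gut epithelium, a Cre recombinase that tamoxifen switches on. RNA of 5 mice per group was pooled, and 1 Affymetrix array was run per pool. Without replicates the genotypes cannot be tested, and no p-values appear. Effects of the deletion, of Cre, of pooling and of the array itself cannot be told apart.

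Secreted and membrane proteins are folded in the endoplasmic reticulum (ER). When unfolded proteins accumulate there, the membrane sensors IRE1, PERK and ATF6 start the unfolded protein response, which raises ER chaperones and the machinery that sends misfolded proteins to the proteasome. PERK and related kinases also phosphorylate the translation factor eIF2, which slows protein synthesis and favours translation of the transcription factor ATF4, and the genes that follow form the integrated stress response. IRE1 acts by splicing the messenger RNA of Xbp1, and ATF6 by being cut, and neither step is read by a gene-level array signal. Intestinal crypts hold Paneth and goblet cells, whose heavy secretion makes them rely on this response.

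Values are MAS5 signals, a linear measure of probe-set brightness, and a gene is represented by the probe set with the highest mean log2 signal. Signals below a floor of 92.9, the 50th percentile of all values, were raised to it, and 11496 genes lay above it on at least 1 array. A gene at least 1.5-fold higher or lower is called so, and the SD of a log2 ratio between different probe sets of the same gene was 0.28, so that 1.5-fold (0.58 on the log2 scale) is 2.10 of these SDs. It does not cover how mice or pools vary, and with 2 arrays in all every value has limited precision. Lpcat3 itself had a signal of 928 in the knockout pool and 4691 in the control pool, a log2 ratio of -2.34, as the labels imply, although whether its 1 probe set lies in the deleted stretch is not stated in the labels. The 8 intestinal epithelium markers, among them Epcam, Cdh1 and Vil1, were all within 1.5-fold, with signals of 3112 to 40321 in the knockout pool and 3475 to 35760 in the control pool. As a measure of RNA degradation, 3' over 5' signal was 1.64 in knockout and 1.98 in control for Actb, and 0.742 in knockout and 0.785 in control for Gapdh.

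As a group the stress response genes stood above the control pool by a small margin. All 40 were above the floor, 39 of them on both arrays and Sesn2 on the knockout array only. The log2 ratio was above 0 in 33 of the 40 (82.5%), against 44.9% of all measured genes. Of the 40, 8 (20%) were at least 1.5-fold higher, where the background over all measured genes was 4.76%, and 1 was at least 1.5-fold lower, where the background was 8.74%. The median log2 ratio of the 40 was 0.26 (1.20-fold), and that of all measured genes was -0.042. The genes called higher were Chac1, Atf3, Creld2, Hyou1, Manf, Phgdh, Sdf2l1 and Derl2, and the gene called lower was Vldlr. Sdf2l1 and Derl2 were just inside the 1.5-fold limit, both with a log2 ratio of 0.59, and Psat1 lay just outside it with 0.57. Chac1 was the 1 gene of the 40 past 2-fold upwards, where the background was 1.41%, and none was past 2-fold downwards, where it was 2.32%.

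Most of these genes are well above background on the array, where ratios spread less. Among the 32 with signals at or above the 75th percentile (451) on both arrays, 6 were at least 1.5-fold higher and none was at least 1.5-fold lower. Over all 6629 genes that bright, 3.36% were called higher and 4.09% called lower. The ratio was above 0 in 27 of the 32, and in 49.1% of the 6629. The median log2 ratio was 0.26 for the 32 and -0.0065 for the 6629.

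**Figure D1:**
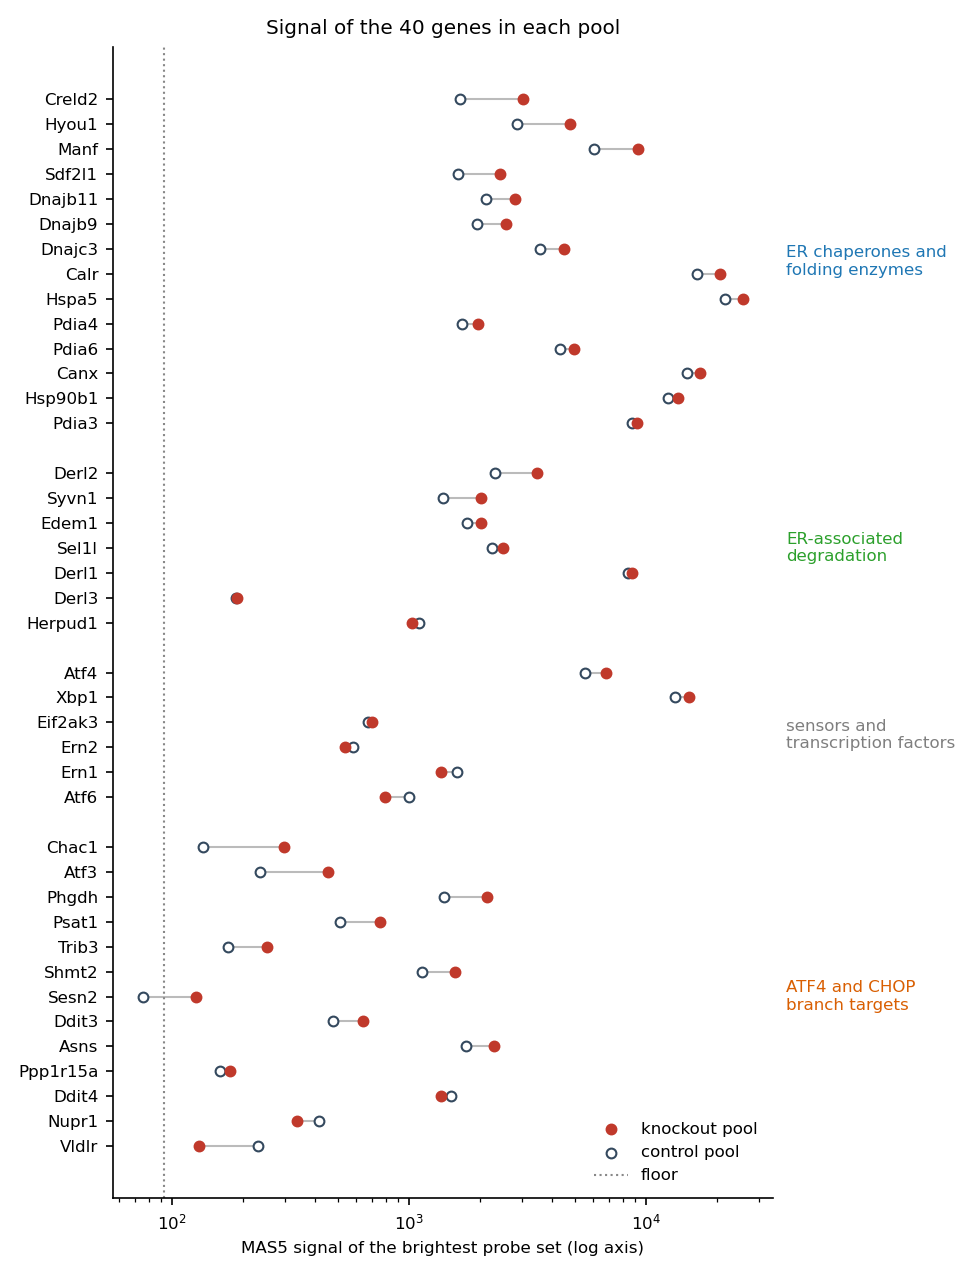
MAS5 signal (log axis) of the brightest probe set of each of the 40 genes in the knockout pool (filled) and the control pool (open), by role, with the floor of 92.9 as a dotted line; each pool is 1 array. All 14 chaperone genes have the filled point to the right of the open one, whereas 3 of the 4 membrane sensors have it to the left.

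The 4 role groups differed in their medians, in an order that was not tested. ATF4 and CHOP branch targets had a median log2 ratio of 0.45 over 13 genes, ER chaperones and folding enzymes 0.33 over 14, degradation genes 0.15 over 7, and sensors and transcription factors -0.033 over 6. Their ranges overlapped. The targets ran from -0.83 to 1.14, the chaperones from 0.074 to 0.88, the degradation genes from -0.11 to 0.59, and the sensors and transcription factors from -0.34 to 0.29. By brightest probe sets the chaperones were the only group of the 4 with every gene above 0, while with the mean of all probe sets this held for the degradation genes (7 of 7) and not for the chaperones (13 of 14). By brightest probe sets the targets had the widest range. With quantile normalization Pdia3 and Derl1 were below 0, with the mean of all probe sets Canx was, and without _s_at and _x_at probe sets Canx, Hyou1 and Trib3 were. The median of sensors and transcription factors lay so near 0 that it turned positive with quantile normalization (0.023), with lowess (0.029) and with centring on the median gene (0.0056).

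**Figure D2:**
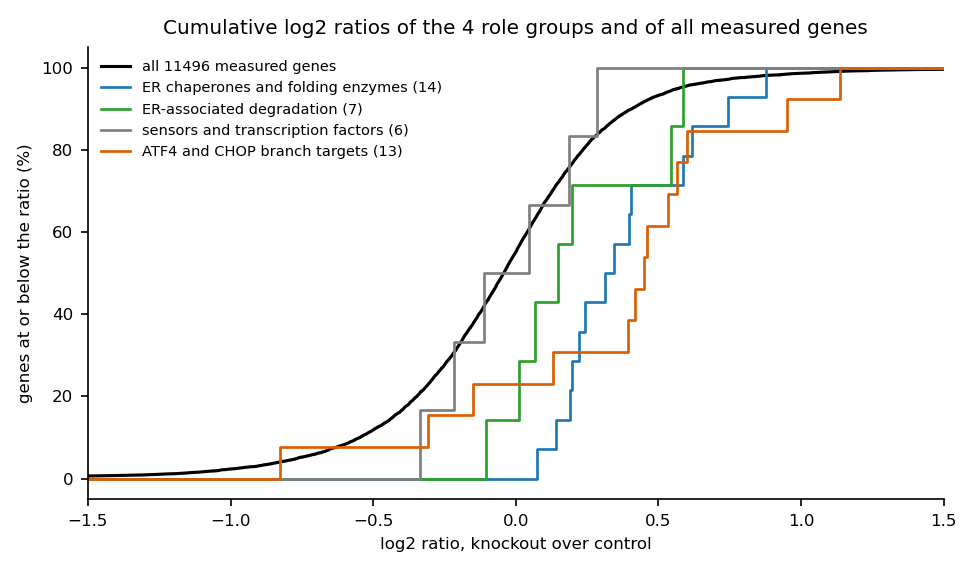
Cumulative share of genes (y axis, percent) at or below a given log2 ratio, knockout over control (x axis), for the 4 role groups and for all 11496 measured genes. The chaperone curve starts at 0.074 and lies to the right of the black curve, the curve of sensors and transcription factors runs close to it, and the target curve spans from -0.83 to 1.14.

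ER chaperones and folding enzymes were higher in the knockout pool by modest amounts, and the 4 past 1.5-fold did not include the major chaperone genes Hspa5 and Hsp90b1. Creld2, an ER-resident protein with epidermal growth factor-like domains that is induced by ER stress, had a signal of 3025 in the knockout pool and 1645 in the control pool, a log2 ratio of 0.88 (1.84-fold). Hyou1, the nucleotide exchange factor that reloads the ER Hsp70, had 4765 in knockout and 2845 in control (0.74). A second probe set of Hyou1, with 345 in knockout and 382 in control, gave -0.15, so its direction depends on the probe set. Manf, a secreted neurotrophic factor that binds the ER Hsp70, had 9219 in knockout and 6013 in control (0.62). Sdf2l1, which works with the co-chaperone Dnajb11, had 2410 in knockout and 1604 in control (0.59). Creld2, Manf and Sdf2l1 are each read by 1 probe set, so no second reading exists for them.

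Hspa5, the ER Hsp70 known as BiP and the usual reporter of the unfolded protein response, had a signal of 25593 in the knockout pool and 21635 in the control pool, a log2 ratio of 0.24. Its other probe sets gave 0.49 and -0.0013. Ratios of bright probe sets can be compressed, which was not tested here. The highest signals of any measured gene were 55763 in knockout and 52434 in control. Hsp90b1, the ER Hsp90, had 13619 in knockout and 12367 in control (0.14), and its other probe set gave 0.50. No reading of these major chaperones reached 1.5-fold. The J-domain co-chaperones that steer the ER Hsp70 lay closer together: Dnajb11 at 0.40, Dnajb9 at 0.40 and Dnajc3 at 0.34. All 5 probe sets of Dnajc3 were above 0, from 0.17 to 0.46. Over the 7 genes of the ER Hsp70 system the median was 0.40.

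Disulfide isomerases, which form and rearrange disulfide bonds, had smaller ratios. Pdia4 was at 0.22, Pdia6 at 0.20 and Pdia3 at 0.074, all within 1 SD of the probe-set error. Calr and Canx are the lectin chaperones that hold glycoproteins until they fold. Calr had 20442 in the knockout pool and 16452 in the control pool (0.31), and its 3 probe sets ran from 0.31 to 0.38. Canx was at 0.19 by its brightest probe set, an _s_at set that may bind related transcripts, and at -0.14 and -0.30 by its others, so no direction can be given for it.

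Degradation genes had a lower median than the chaperones, and 1 of the 7 was past 1.5-fold. Syvn1, the ER ubiquitin ligase also called HRD1, had a signal of 2023 in the knockout pool and 1387 in the control pool, a log2 ratio of 0.54, and its other probe set gave 0.88. Both readings of Syvn1 were above the control, although the brighter one lay just under 1.5-fold. Its adaptor Sel1l was at 0.15, with other probe sets from -0.018 to 0.50. Herpud1, which organises the Syvn1 complex, was at -0.11 (1027 in knockout, 1106 in control), whereas its other probe set gave 0.56. Edem1, which trims mannose from misfolded glycoproteins, was at 0.20. Among the derlins, which help move proteins out of the ER, Derl2 had 3462 in knockout and 2305 in control (0.59), but its other probe set gave -0.32. Derl1 was at 0.066 and Derl3 at 0.011. Derl3, a derlin known from secretory cells, had signals of 188 in knockout and 187 in control.

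Sensors and their transcription factors were all within 1.5-fold by their brightest probe sets. Ern1, which encodes IRE1, had 1365 in the knockout pool and 1587 in the control pool (-0.22), while its other probe sets gave 0.057 and, with the knockout signal below the floor, a bound of -0.93. Ern2, the IRE1 gene of mucosal epithelia, had 539 in knockout and 583 in control (-0.11). Atf6 had 796 in knockout and 1005 in control (-0.34), while its other probe sets gave 0.055 and 0.076. Eif2ak3, which encodes PERK, had 696 in knockout and 674 in control (0.046). The transcription factor genes lay on the other side of 0. Xbp1 had 15133 in knockout and 13291 in control (0.19), and its 4 probe sets ran from 0.17 to 0.27. Atf4 had 6750 in knockout and 5536 in control (0.29), and its other probe set above the floor gave 0.36. The probe sets are not stated to separate spliced from unspliced Xbp1, and Atf4 is controlled mainly in translation, which this assay does not read.

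ATF4 and CHOP branch targets had the highest and the lowest ratios of the 40. Chac1, which degrades glutathione, had a signal of 298 in the knockout pool and 135 in the control pool, a log2 ratio of 1.14 (2.20-fold). Atf3, a stress transcription factor, had 454 in knockout and 235 in control (0.95). Ddit3, which encodes CHOP, had 642 in knockout and 480 in control (0.42, within 1.5-fold). Chac1 and Atf3 have 1 probe set each and are dim in the control pool, and with a pseudocount in place of the floor Chac1 was at 0.77 and Atf3 at 0.74. With the floor at the 70th percentile Atf3 was at 0.52, under 1.5-fold, and Chac1 had no value.

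Enzymes of amino acid synthesis lay close together, between 0.39 and 0.60. Phgdh, the first enzyme of serine synthesis, had 2133 in knockout and 1407 in control (0.60), although its 4 probe sets ran from -0.17 to 0.77. Psat1, the next enzyme, had 757 in knockout and 511 in control (0.57), and its other probe set gave 0.76. Shmt2, which turns serine into glycine in mitochondria, had 1561 in knockout and 1135 in control (0.46). Asns, asparagine synthetase, had 2289 in knockout and 1744 in control (0.39), with 0.65 by its other probe set. All 4 were above 0 by their brightest probe set, with a median of 0.51. Phgdh and Shmt2 were read by _x_at probe sets, which can bind transcripts of related sequences.

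Targets that restrain the response or growth differed among themselves. Trib3, a pseudokinase that inhibits ATF4 activity, had 251 in knockout and 173 in control (0.53), but its other probe set gave -0.075. Ppp1r15a, which recruits a phosphatase to eIF2, was at 0.13. Sesn2, an inhibitor of the growth kinase complex mTORC1, was at least 1.37-fold higher, with a knockout signal of 127 and a control signal of 75.4 that lay below the floor. Ddit4, another mTORC1 inhibitor, had 1362 in knockout and 1510 in control (-0.15). Nupr1, a stress-induced chromatin protein, had 337 in knockout and 417 in control (-0.31), and its other probe set gave -0.45. Vldlr, a lipoprotein receptor, had 130 in knockout and 231 in control (-0.83). Both signals of Vldlr were near the floor, its brightest probe set is an _x_at set, and its 5 other probe sets were below the floor on both arrays.

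**Figure D3:**
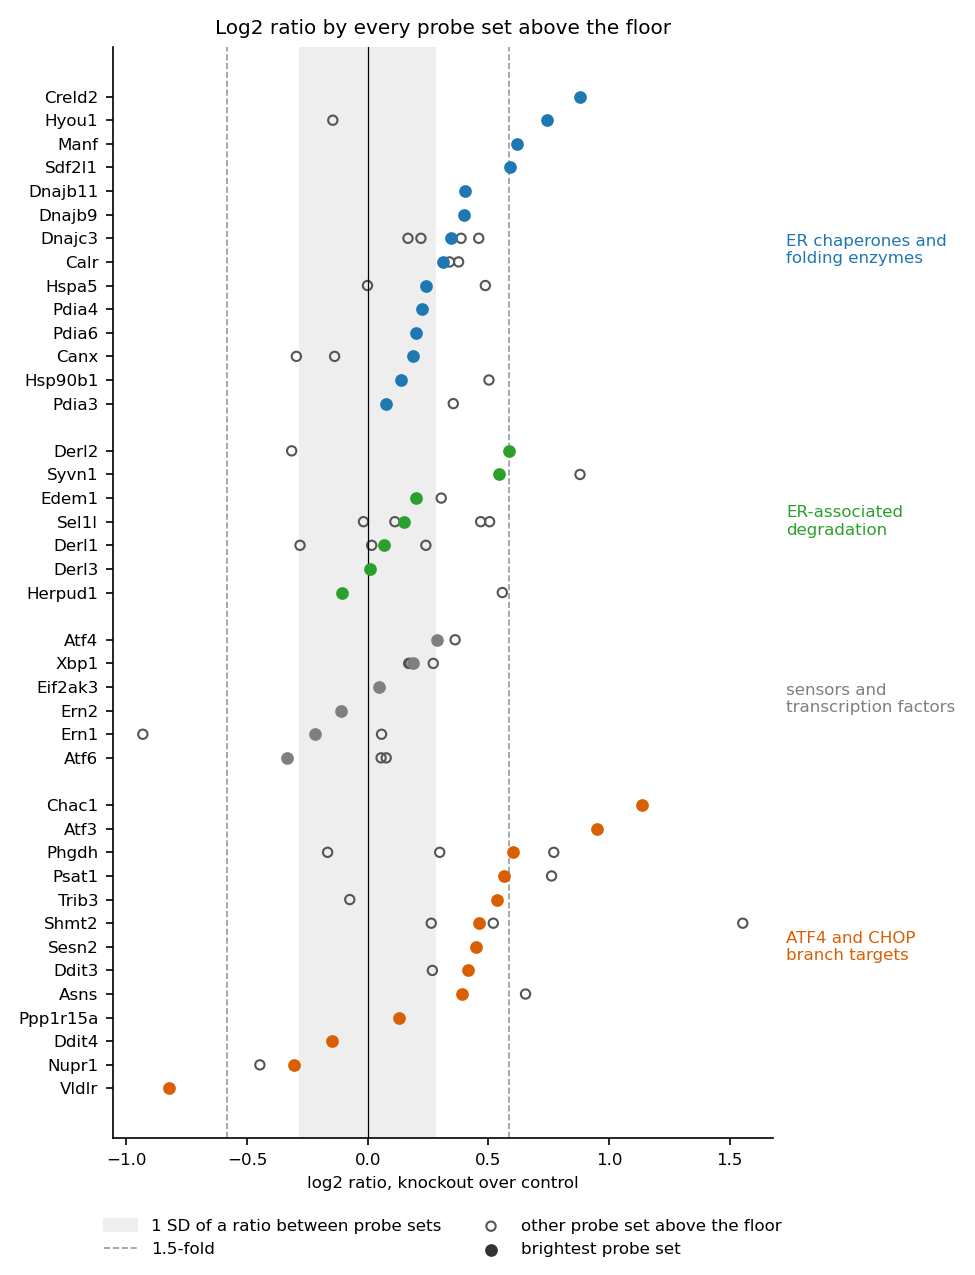
Log2 ratio (knockout over control) of every probe set of the 40 genes that was above the floor on at least 1 array; filled points are the brightest probe set, open points the others, the grey band is 1 SD of a ratio between probe sets (0.28) and the dashed lines mark 1.5-fold. Probe sets of Dnajc3, Calr, Xbp1 and Atf4 lie close together, while those of Hyou1, Derl2, Herpud1 and Canx fall on both sides of 0. Points with 1 array below the floor are bounds. These are the open points of Ern1 at -0.93, of Shmt2 at 1.55 and 0.26 and of Ddit3 at 0.27, and the filled point of Sesn2 at 0.45.

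The 40 genes are read by 97 probe sets, of which 78 were above the floor on both arrays, and 61 of these 78 had a ratio above 0. Some genes count several times among the 78, such as Dnajc3 with 5, and no share over all probe sets stands beside this count. A second probe set above the floor on both arrays existed for 23 genes. All readings were above 0 for 11 of these 23 and below 0 for 1 (Nupr1), and they had both signs for the other 11. Of the 8 genes called higher, 5 had no second reading, and the 3 that had (Hyou1, Phgdh and Derl2) each had a probe set below 0. Without _s_at and _x_at probe sets Hyou1 was at -0.15.

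The promoters of the 40 genes were searched for the elements through which the branches are known to act. The ER stress element is a CCAAT followed, after 9 bases of any kind, by CCACG, and it is bound by ATF6 and XBP1 together with the factor NF-Y. The C/EBP-ATF element was searched as TGATGNAA, and it is bound by ATF4 and CHOP with C/EBP factors. RefSeq promoter windows of 250 bases before to 50 bases after the transcription start (GRCm38.p6) were matched for 35 of the 40 genes, and both strands were read. An ER stress element lay in 9 of the 35, namely 7 chaperone genes, Syvn1 and Derl3, while 37 of all 27025 genes in the table (0.137%) had one. The genes and the element were both chosen as known parts of this response, so the higher share is no result of these data. The matches are shown because they are the sequence that these genes share, each in the direction of the element, with the CCAAT and CCACG in capitals, in the order of the log2 ratio.
Creld2 (0.88): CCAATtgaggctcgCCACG
Syvn1 (0.54): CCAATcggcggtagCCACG
Dnajc3 (0.34): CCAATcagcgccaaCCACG
Calr (0.31): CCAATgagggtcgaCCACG
Hspa5 (0.24): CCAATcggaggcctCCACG
Pdia6 (0.20): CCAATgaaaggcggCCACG
Canx (0.19): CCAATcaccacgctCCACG
Hsp90b1, upstream (0.14): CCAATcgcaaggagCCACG
Hsp90b1, downstream (0.14): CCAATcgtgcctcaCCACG
Derl3 (0.011): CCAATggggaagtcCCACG
All 9 genes had a ratio above 0, as had 21 of the other 26 genes with a promoter window and 44.9% of all measured genes. Creld2 alone of the 9 was at least 1.5-fold higher, where the background over all measured genes was 4.76%. The median log2 ratio of the 9 was 0.24, against 0.34 for the other 26, of which 5 were at least 1.5-fold higher. Among the 35 the median was thus lower with the element than without it. The 26 include ATF4 and CHOP branch targets, and none of the 9 is such a target, so this contrast also compares role groups. A match or its absence is a description of these letters and shows no binding.

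The 250 bases before the start are given for Creld2, which had the highest ratio among genes with the element, and for Hspa5, the usual reporter gene, in the direction of the gene, with the element in capitals. In Creld2 (chr15:88819396-88819645, plus strand) the element lies on the opposite strand at bases -126 to -108 from the start. In Hspa5 (chr2:34771840-34772089, plus strand) it lies on the gene's strand at bases -65 to -47.
Creld2: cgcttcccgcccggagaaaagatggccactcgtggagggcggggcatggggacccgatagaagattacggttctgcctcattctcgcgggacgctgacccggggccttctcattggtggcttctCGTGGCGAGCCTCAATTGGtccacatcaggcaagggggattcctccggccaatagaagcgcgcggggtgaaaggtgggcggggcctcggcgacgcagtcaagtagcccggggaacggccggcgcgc
Hspa5: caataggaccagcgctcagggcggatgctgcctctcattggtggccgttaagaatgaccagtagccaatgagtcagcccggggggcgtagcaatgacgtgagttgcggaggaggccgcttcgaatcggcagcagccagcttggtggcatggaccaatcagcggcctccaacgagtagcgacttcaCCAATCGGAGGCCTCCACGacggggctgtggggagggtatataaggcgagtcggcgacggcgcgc

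The C/EBP-ATF element, likewise chosen as a known part of the response, lay in 7 of the 35 genes and in 4.51% of all genes in the table. The median log2 ratio was 0.39 for these 7, of which 4 were above 0. It was 0.26 for the other 28, of which 26 were above 0. The matches are given with 8 bases on either side and the element in capitals, in the direction of the element.
Chac1 (1.14): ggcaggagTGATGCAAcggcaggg
Atf3 (0.95): ggacttggTGATGCAAgtgcgaga
Trib3 (0.53): cgcccggcTGATGTAAacctgagc
Asns (0.39): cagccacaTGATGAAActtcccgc
Herpud1 (-0.11): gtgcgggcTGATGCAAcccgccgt
Nupr1 (-0.31): gccctgtcTGATGCAAtctggccc
Vldlr (-0.83): aggagcgcTGATGCAActattgct
The same 8 letters, TGATGCAA, occur in Chac1 and Atf3, which have the highest ratios of the 40 genes. They also occur in Herpud1, Nupr1 and Vldlr, whose ratios are below 0 by their brightest probe sets. The other probe set of Herpud1 gave 0.56, and the signals of Vldlr were near the floor. The 250 bases before the start of Chac1 (chr2:119350992-119351241, plus strand) and Atf3 (chr1:191183334-191183583, minus strand) are given in the direction of the gene, where the element reads as its reverse complement in capitals. It lies at bases -193 to -186 in Chac1 and -110 to -103 in Atf3.
Chac1: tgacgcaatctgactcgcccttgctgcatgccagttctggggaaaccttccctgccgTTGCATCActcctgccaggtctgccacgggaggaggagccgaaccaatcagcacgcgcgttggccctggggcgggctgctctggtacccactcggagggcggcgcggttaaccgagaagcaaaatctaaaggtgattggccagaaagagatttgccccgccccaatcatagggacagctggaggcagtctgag
Atf3: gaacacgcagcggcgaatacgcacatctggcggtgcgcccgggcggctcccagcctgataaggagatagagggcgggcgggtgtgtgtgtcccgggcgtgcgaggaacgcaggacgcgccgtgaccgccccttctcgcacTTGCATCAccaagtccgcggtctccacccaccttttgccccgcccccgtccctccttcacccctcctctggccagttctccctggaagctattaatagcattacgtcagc
A further motif, the UPR element searched as TGACGTGG, was in none of the 35 genes and in 0.714% of all genes. CCAAT alone was in 28 of the 35 and in 41.1% of all genes, and CCACG alone in 27 of the 35 and in 35.5% of all genes, with those inside ER stress elements counted too.

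**Figure D4:**
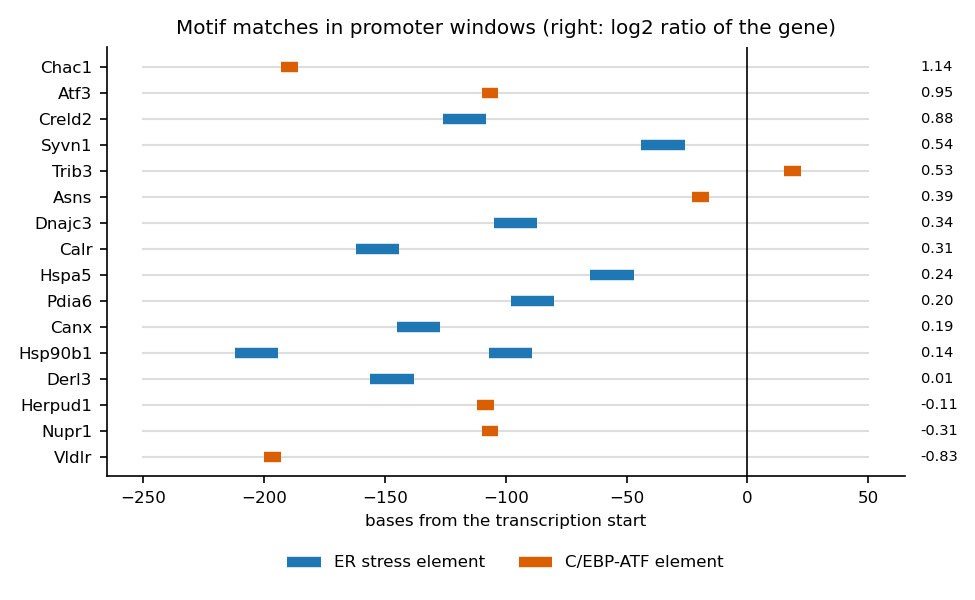
Position of ER stress elements (blue) and C/EBP-ATF elements (orange) from the transcription start (x axis, bases) in the 16 genes that hold either, ordered by log2 ratio, which stands at the right. Blue bars lie between -212 and -26 and occur from 0.88 down to 0.011, while orange bars occur at both ends of the order, from 1.14 down to -0.83.

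Other genes of these pathways, 129 on 7 lists, were described in the same way. Of these, 117 were measured, with 11 called higher, 3 called lower, 91 above 0 and a median of 0.18. Over all measured genes 4.76% were called higher, 8.74% called lower and 44.9% were above 0, against which the counts of each list below are to be read. Housekeeping genes, 9 measured of 12 listed, had a median of 0.11, with 6 above 0 and none called higher or lower. The 8 intestinal epithelium markers had a median of 0.12, with 5 above 0. Among other ER folding genes 3 of 19 were at least 1.5-fold higher and none lower, with a median of 0.16. Fkbp11, a prolyl isomerase of secretory cells, had a signal of 507 in the knockout pool and 202 in the control pool (1.33). Ero1a, the oxidase that recharges disulfide isomerases, had 2975 in knockout and 1495 in control (0.99), whereas its relative Ero1b was at -0.30. The third on this list was the J-domain gene Dnajb2 at 0.63, whose protein lies outside the ER lumen.

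Of 24 genes of ER translocation and the early secretory pathway, 22 were above 0 and 2 were at least 1.5-fold higher, with a median of 0.23. These were Kdelr3, a receptor that returns escaped chaperones to the ER, with 410 in knockout and 200 in control (1.04), and Sec24d, a coat protein of vesicles that leave the ER (0.62). Sec61a1, the channel through which proteins enter the ER, was at 0.54. Other degradation genes were also shifted slightly: 16 of 17 were above 0, with a median of 0.26. Selenos, a selenoprotein of the degradation complex, was the 1 gene of these 17 past 1.5-fold, with 9992 in knockout and 6016 in control (0.73).

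Other sensors and transcription factors went both ways, with a median of 0.15 over 13 genes. Atf5, a transcription factor controlled in translation much as ATF4 is, had 721 in knockout and 310 in control (1.22). Crebrf, a regulator of the ER stress factor CREB3, had 220 in knockout and 519 in control (-1.24), and its other probe set gave -1.06. The genes of eIF2, its exchange factor eIF2B, its kinases and its phosphatase had a median of 0.13 over 11 genes. Eif2b1, of eIF2B, was highest at 0.50. Eif2ak4, which encodes the amino acid-sensing kinase GCN2, was lowest, with 131 in knockout and 209 in control (-0.68).

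Other ATF4 targets had a median near 0: it was 0.057 over 17 measured genes, with 9 above 0. Of these 17, 3 were at least 1.5-fold higher. Eif4ebp1, an inhibitor of translation, had 2618 in knockout and 1073 in control (1.29), and its other probe set gave 0.85. Stc2, a secreted glycoprotein induced by ER stress, had 200 in knockout and 99.1 in control (1.01), with the control value close to the floor. Psph, the last enzyme of serine synthesis, had 595 in knockout and 338 in control (0.82), which sets it beside Phgdh and Psat1. Gpt2, an alanine aminotransferase, was lowest, with 123 in knockout and 224 in control (-0.86). The next lowest were the enzyme genes Aldh18a1 at -0.32 and Mthfd1l at -0.20.

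**Figure D5:**
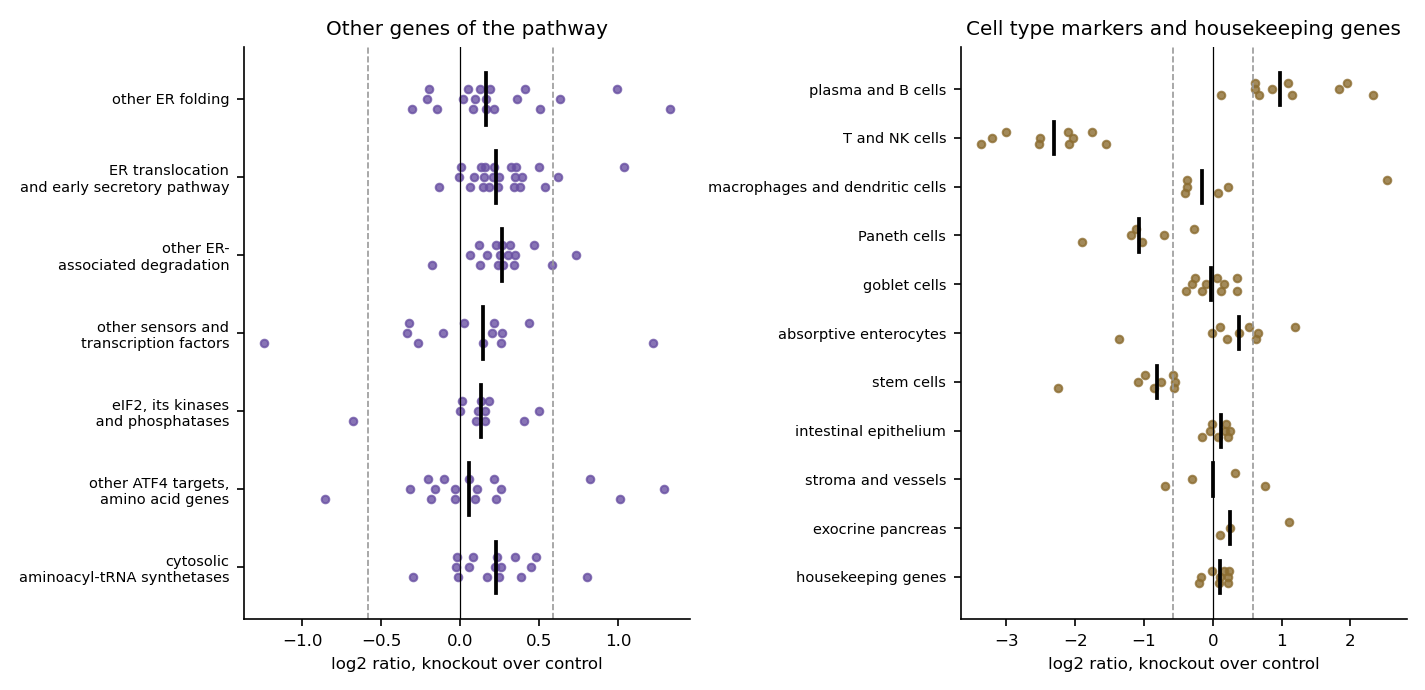
Log2 ratio (x axis, knockout over control) of each measured gene of the 7 other pathway lists (left) and of the 11 marker and housekeeping lists (right); black bars are medians and dashed lines mark 1.5-fold. The pathway medians lie between 0.057 and 0.26, while plasma and B cell markers have a median of 0.98, T and NK cell markers -2.31 and Paneth cell markers -1.07.

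Markers of several cell types moved in the same pools, and in bulk RNA a change in the number of cells of a type and a change in RNA per cell cannot be told apart. Plasma cells, which make antibody in an enlarged ER, express many of these chaperone genes. Of 14 plasma and B cell markers 10 were measured, and 9 of the 10 were at least 1.5-fold higher by their brightest probe sets. Their summed signals were 24408 in the knockout pool and 7951 in the control pool, over all 10. Other probe sets gave 1.76 and 1.92 for Igha, 0.072 and 1.32 for Ighm, and -0.031 and 0.053 for Sdc1. Pou2af1 had a control signal below the floor. Jchain had 2974 in knockout and 593 in control (2.33), Igha 16319 in knockout and 4585 in control (1.83), and Mzb1, an ER co-chaperone of plasma cells, 333 in knockout and 209 in control (0.67). Irf4 and Tnfrsf17 were below the floor on both arrays. Genes described above as known from secretory cells differed, with Derl3 at 0.011 (188 in knockout, 187 in control) and Fkbp11 at 1.33 (507 in knockout, 202 in control). Paneth cell markers were lower, 5 of the 6 measured out of 10 listed by at least 1.5-fold, with summed signals of 70271 in knockout and 114318 in control. The 10 goblet cell markers were all within 1.5-fold (148353 in knockout, 160327 in control). T and NK cell markers were at least 1.5-fold lower in 10 of the 10 measured, out of 11 listed (8967 in knockout, 43433 in control). Stem cell markers were below 0 in 8 of 8, with 6 at least 1.5-fold lower, a median of -0.81 and summed signals of 33286 in knockout and 55932 in control. Lgr5, the marker of crypt base stem cells, was lowest among them, with 171 in knockout and 814 in control (-2.25). Absorptive enterocyte markers were above 0 in 7 of the 9 measured out of 10 listed, with 3 at least 1.5-fold higher, 1 at least 1.5-fold lower and a median of 0.38 (summed signals of 252325 in knockout and 209471 in control). They ran from Lct at -1.36 to Rbp2 at 1.20. The part of these cell types in the ratios of the 40 genes was not tested.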

How the data were processed

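Pooled RNA of small-intestinal crypts was read on 1 Affymetrix array per group, with the 45101 probe sets of the full mouse array, although the series' design text names its smaller A version. The deposited values were linear signal intensities made by the authors with MAS5, per the submitters' processing notes, and both arrays had a trimmed mean of 500.003, so each had been scaled to the same target. The labels do not state the MAS5 options. Probe sets were named from GEO's platform annotation, with symbols updated through RefSeq (GRCm38.p6): 34945 named 1 gene, 932 several and 9160 none, and 64 controls were left out. Gene ratios, the floor and the probe-set error were computed in Python 3.11.15 with pandas 2.3.3 and numpy 2.4.6, and the ratio script was tested on simulated data. The floor at a rank of all values understates the ratios of dim genes. Every one of the 40 genes is named, and of other pathway lists some of the 3 highest and 3 lowest. The isomerase genes Pdia5, P4hb and Txndc5 are named besides. The 40 genes and the lists were chosen with earlier results of these data known. The subset of brighter genes was added after the data were seen. With 1 array per group no test was made; 9 alternative settings were tried.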

Additional observations from a re-analysis of the deposited data

Results flagged for a closer look

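For 4 genes a probe set other than the brightest, and so outside the values compared above, was at least 1.5-fold higher while the brightest was not. No share over all genes stands beside this count, so it cannot be read as many or few. For Syvn1 it had 1394 in the knockout pool and 758 in the control pool, a log2 ratio of 0.88. For Psat1 it had 726 in knockout and 428 in control (0.76). For Asns it had 1738 in knockout and 1105 in control (0.65). For Shmt2 it had 273 in knockout and 76.1 in control, which is below the floor, so that its log2 ratio of 1.55 is a lower bound (at least 2.94-fold higher). For Ern1 such a probe set was lower, with 80.6 in knockout, below the floor, and 177 in control (-0.93 at the floor, a bound). The probe sets of Psat1, Asns and Shmt2 are _s_at or _x_at sets, which can bind related transcripts, and the part of this in the ratios was not tested.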

How the results depend on the processing

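Over 9 alternative settings the median log2 ratio of the 40 genes ran from 0.21 to 0.30, of chaperones from 0.28 to 0.37, of degradation genes from 0.13 to 0.23, of ATF4 and CHOP branch targets from 0.37 to 0.49, and of sensors and transcription factors from -0.033 to 0.029. The number of genes at least 1.5-fold higher ran from 5 to 9. It was 9 with centring on the median gene and with the floor at the 30th percentile. Under that lower floor 8.22% of all genes were called higher. The number was 5 with a pseudocount in place of the floor, where 2.94% of all genes were called higher and Derl2, Phgdh and Sdf2l1 lost their call. The number at least 1.5-fold lower came to 0 under a floor at the 70th percentile, with the pseudocount and without _s_at and _x_at probe sets. The share of all genes called lower under those settings is not given here, so these counts cannot be read as few. Of 349 single-gene values under these settings, 337 moved by less than the probe-set error and 12 by more, and 7 had the opposite sign. With quantile normalization Pdia3 (-0.022) and Derl1 (-0.026) did. With the mean of all probe sets Canx (-0.082) and Herpud1 (0.23) did. Without _s_at and _x_at probe sets Hyou1 (-0.15), Canx (-0.30) and Trib3 (-0.075) did. Creld2 was called higher under 9 of 9 settings, Chac1 under 8 of the 8 that gave it a value, Atf3 under 8 of 9, Hyou1 and Manf under 7 of 9, Phgdh under 6 of 8, Sdf2l1 under 6 of 9 and Derl2 under 5 of 9, and Vldlr was called lower under 6 of 7. No paired analysis was possible because there is 1 array a group, nor could either array be omitted in turn. Signals near the floor, as for Vldlr, Sesn2 and Chac1, limit those ratios.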

Other observations

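Cytosolic aminoacyl-tRNA synthetases, which charge transfer RNAs with amino acids and include known ATF4 targets, lay above 0 in 12 of 16 measured genes, with a median log2 ratio of 0.23, and 1 of the 16 (6.25%) was at least 1.5-fold higher. Over all measured genes 44.9% were above 0 and 4.76% at least 1.5-fold higher, so the share called is near the background. Cars, for cysteine, was highest at 0.80, followed by Aars, for alanine, at 0.48 and Gars, for glycine, at 0.45. Kars, for lysine, was lowest at -0.30. Summed over the 16 genes, the signals were 46556 in the knockout pool and 40755 in the control pool.

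Phgdh was also named, together with a gene model, by a pair of probe sets that were left out of the gene values because they name several genes. They gave log2 ratios of 0.53 (410 in knockout, 283 in control) and 0.24 (608 in knockout, 517 in control).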
